A study of Chlorella sp. HS2 with 12 samples.

Results

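Compatible solutes are small organic molecules, such as proline, glycerol, sucrose, trehalose, inositol, sorbitol and glycine betaine, that cells can hold at high concentration without harm to their proteins. Algae and plants make them when the salt outside the cell rises, and the best known algal case is glycerol in Dunaliella, a green alga of salt lakes. Genes of these pathways were followed in Chlorella sp. HS2, a unicellular green alga. A gene was a member when its best-hit name held any of 16 product names of these pathways and its hit had an E-value of at most 1e-10. In all, 56 of 57640 assembled genes were members. The largest E-value among them was 1.7978e-11, and 0 genes with such a name lay outside the limit. The patterns proline transporter, glycerol-3-phosphate phosphatase and mannitol matched no gene, while a betaine member below the detection limit (TRINITY_DN29840_c0_g1) is named as a glycine betaine/proline/choline transporter.

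The cultures were grown autotrophically with added CO2 in freshwater inorganic medium or in marine inorganic medium with 3% (w/v) sea salt. They were harvested 4 days after inoculation, in exponential phase, or 6 days after inoculation, in stationary phase. Each of the 4 groups had 3 libraries of poly(A)-selected RNA, which the series calls biological replicates, and all came from the same strain. Library totals ran from 9378066 to 11280635 estimated counts. Levels are given as CPM, read counts scaled by library total and by a TMM factor, which adjusts for differences in make-up between libraries. The factors split by medium, at 0.7381 to 0.8702 in freshwater and 1.112 to 1.395 in marine libraries. With library totals as the only scaling, marine over freshwater log2 fold changes moved upwards by a median of 0.601 in exponential and 0.535 in stationary phase. Which scaling lies nearer to the true levels was not tested. Library codes share a stem among the 3 marine exponential libraries and between marine stationary replicates 1 and 2. Genes in pairs with a shared stem had a median absolute log2 difference of 0.122 to 0.165, against 0.299 to 0.427 within freshwater groups and 0.533 to 0.54 between marine stationary replicate 3 and the other two. P-values of marine comparisons may therefore measure technical spread in part. The same holds for comparisons within freshwater, since all 12 libraries entered 1 fit in which the groups share the estimate of spread. Marine stationary replicate 3 stood apart in several of the members below.

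The 56 members were not alike in where they were found. A member was taken as detected in a medium when its 6 libraries held at least 15 counts in all. By this limit 28 were detected in both media, 20 in freshwater only and 5 in marine medium only, and 3 were below the limit in both. Sequences of the 28 in both media had a median length of 5149 bases, and 23 had a land plant protein as best hit. The 20 of freshwater only had a median length of 543.5 bases, and 8 of them had an animal and 8 a land plant protein as best hit, against 2 animal hits among the 28. Of the 5 found in marine medium only, 4 had a bacterial hit and 1 an archaeal one. A gene was tested when it passed a filter on low counts, which 40 members did (28 of both media, 10 of freshwater only and 2 of marine medium only).

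**Figure D1:**
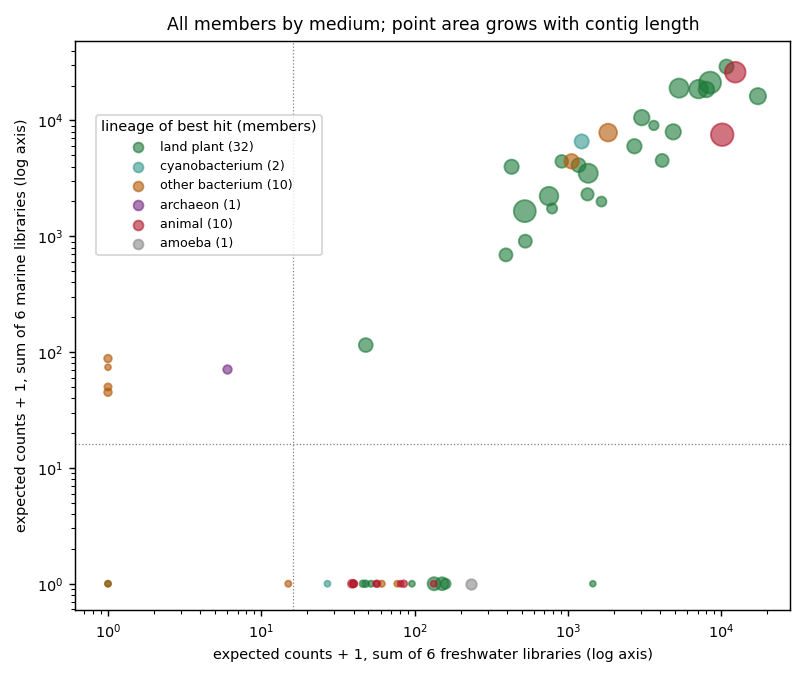
Expected counts plus 1 of the 56 members, summed over 6 freshwater libraries (x, log axis) and 6 marine libraries (y, log axis), coloured by the lineage of the best hit, with point area growing with sequence length; dotted lines mark the limit of 15 counts. The 28 members of both media form the group of long sequences at the upper right, and the 20 of freshwater only lie along the lower edge.

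Names were given by similarity, and 8 members were taken in only by letters of another name: 4 diacylglycerol kinases, 2 acetylornithine aminotransferases, a sucrose nonfermenting 4-like protein and a maltose-binding protein. A second limit is that assembled genes can join neighbours. The transcript annotation placed the named product on a predicted reading frame for 19 of the 28 members of both media, and 7 of these also carried a frame of another protein, so that their counts may include reads of another gene. These 7 are TRINITY_DN1050_c0_g1, TRINITY_DN190_c0_g1, TRINITY_DN3869_c0_g1, TRINITY_DN883_c2_g1, TRINITY_DN880_c2_g1, TRINITY_DN1500_c0_g1 and TRINITY_DN2917_c1_g1. The other 9 of the 28 could not be checked in this way, so that joined neighbours are unknown for them. They include TRINITY_DN715_c0_g2, TRINITY_DN1336_c0_g2, TRINITY_DN1119_c0_g1 and TRINITY_DN1924_c0_g1, which are described below. Library preparation did not mark strand, so that overlapping genes cannot be told apart by it either.

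Marine medium was set against freshwater in each phase. In exponential phase 16 of the 40 tested members were higher and 6 lower in marine libraries at a false discovery rate (FDR, the Benjamini-Hochberg adjusted p of edgeR's quasi-likelihood test) under 0.05. Over all 31491 tested genes 9.30% were higher and 10.8% lower. In stationary phase 14 members were higher and 9 lower, against 9.02% and 17.3% of all tested genes. A fairer background for the 28 members of both media is the 4502 tested genes of both media with a hit. Of the 28, 16 were higher and 2 lower in exponential phase, with a median log2 fold change of 0.71, where 24.0% of the 4502 genes were higher and 21.6% lower, with a median of -0.02. In stationary phase 13 were higher and 3 lower, with a median of 0.55, where 19.4% of the 4502 were higher and 25.1% lower, with a median of -0.05. Without the members taken in by letters of another name, 23 remained in both media, of which 15 were higher and 2 lower in exponential phase and 11 higher and 3 lower in stationary phase.

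Of the 28, 9 were called higher in both phases, 7 in exponential phase without a call in stationary phase, and 4 the reverse. A further 2 were lower in both and 1 lower in stationary phase alone, and 5 had no call. The shares of these joint patterns over all tested genes were not counted, so nothing particular to the members is read from them. The exponential count of 16 was smaller in several fits without 1 library, and so was the count over all genes. Over all genes 2928 of 31491 were higher with all libraries, and 1227 to 1480 of 41039 to 41585 in the fits listed next. The exponential count of the 28 members was 8 without marine exponential replicate 1 or 3. That count was 9 without marine exponential replicate 2 or freshwater exponential replicate 1 or 2. In a further fit, libraries with the same code stem were added together. That fit had 1 sample in the marine exponential group and 51469 tested genes, and the part of either in its calls was not tested. Of 54 calls of the 27 genes named below, over all 5 contrasts, 45 were lost in that fit, also most of those that were kept without any 1 library, and 9 stayed. These 9 are the stationary salt effects of glutamate 5-kinase, both P5C reductases, ornithine aminotransferase, glycerol-3-phosphate dehydrogenase TRINITY_DN3869_c0_g1 and sucrose synthase 3, the exponential salt effect of galactosyltransferase 6, and the fall of sucrose synthase 3 and trehalose-phosphate synthase 6 into freshwater stationary phase.

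**Figure D2:**
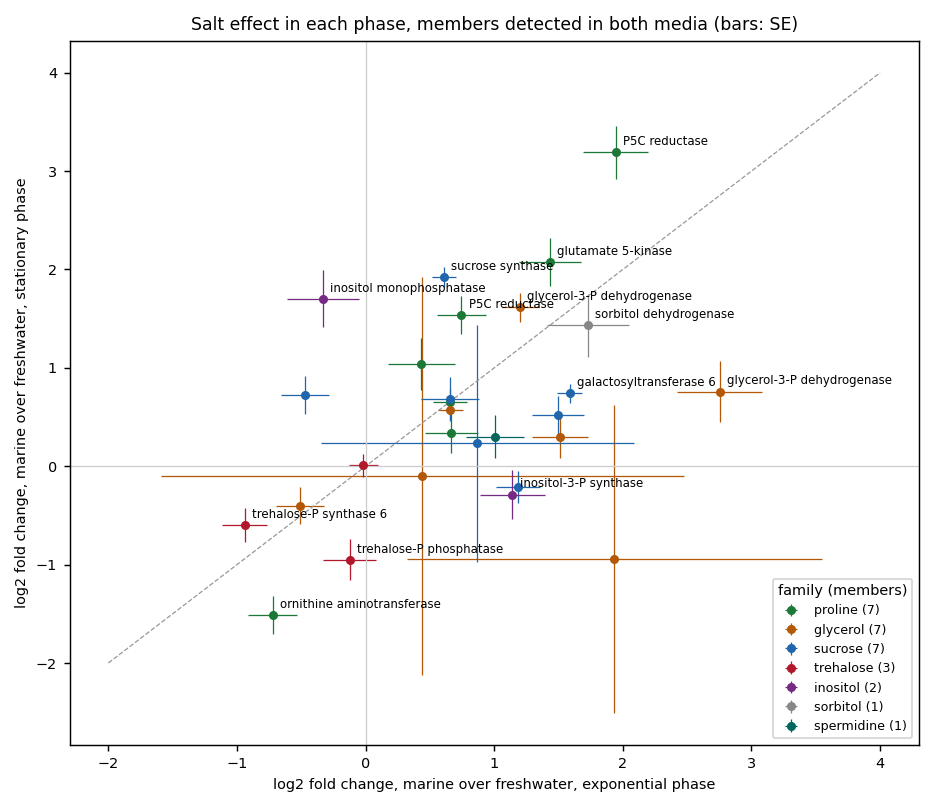
Log2 fold change of marine over freshwater in exponential phase (x) against stationary phase (y) for the 28 members of both media, coloured by family, with bars of 1 SE and a dashed line of equal effect. Pyrroline-5-carboxylate (P5C) reductase, glutamate 5-kinase and glycerol-3-phosphate dehydrogenase lie in the upper right, and ornithine aminotransferase and trehalose-phosphate synthase 6 in the lower left; both diacylglycerol kinase 2 genes and the low galactosyltransferase TRINITY_DN11806_c0_g1 have the long bars.

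Proline is made from glutamate through glutamate 5-kinase and the P5C synthase, and P5C reductase takes the last step. The 4 genes of these steps that were found in both media were higher in marine medium in both phases. Glutamate 5-kinase (TRINITY_DN3484_c0_g1) stood at 30.6, 35.6 and 32.0 CPM in freshwater exponential libraries and at 91.8, 87.3 and 85.9 CPM in marine exponential ones. Its stationary values were 24.5, 16.3 and 18.6 CPM in freshwater and 67.8, 63.7 and 119 CPM in marine medium. The media did not overlap in either phase, and marine stationary replicate 3 was the highest of all. It rose by a log2 fold change of 1.43 ± 0.24 (SE, FDR 0.00177) in exponential and 2.08 ± 0.24 (FDR 0.000202) in stationary phase, and both calls were kept without any 1 of the 12 libraries. With shared-stem libraries summed the exponential call was lost (1.52, FDR 0.106) and the stationary one stayed (2.37, FDR 0.00769).

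P5C reductase was found as 2 assembled genes. TRINITY_DN2936_c0_g1 went from 13.3, 12.4 and 10.7 CPM to 49.4, 47.2 and 43.8 CPM with salt in exponential phase. In stationary libraries it was at 6.18, 5.81 and 6.64 CPM in freshwater and at 43.5, 43.2 and 83.5 CPM in marine medium. Its log2 fold changes were 1.95 ± 0.25 (FDR 0.000342) and 3.19 ± 0.27 (FDR 2.19e-05), and both calls were kept without any 1 library. With shared-stem libraries summed the exponential call was lost (2.03, FDR 0.0737) and the stationary one stayed (3.49, FDR 0.00394). TRINITY_DN635_c0_g1 had 36.3, 35.7 and 23.2 CPM against 51.7, 53.0 and 55.0 CPM in exponential phase, and 20.4, 16.3 and 18 CPM against 48.3, 48.0 and 62.6 CPM in stationary phase. Again the media did not overlap. Its stationary rise of 1.54 ± 0.19 (FDR 0.00031) was kept without any 1 library. The exponential rise of 0.74 ± 0.19 (FDR 0.0199) lost its call without any 1 library but freshwater stationary replicate 1 or marine stationary replicate 3, at an FDR of up to 0.288 and a log2 fold change of 0.28 to 0.75. That call was also lost with counts summed over the assembly component (0.54, FDR 0.0704).

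The P5C synthase (TRINITY_DN715_c0_g2), which in plants joins the kinase and the following reduction in 1 protein, moved less. It stood at 31.0, 31.0 and 27.6 CPM in freshwater and 46.3, 44.9 and 49.9 CPM in marine exponential libraries. Stationary values were 28.1, 30.3 and 23.4 CPM against 43.1, 44.7 and 40.7 CPM. All marine values lay above all freshwater values. The log2 fold change was 0.65 ± 0.13 in either phase (FDR 0.00551 and 0.0058). The exponential call was lost without any 1 exponential library or freshwater stationary replicate 2 or 3 (FDR up to 0.258), and the stationary call without marine stationary replicate 1 or 2 (FDR up to 0.0669). The exponential call was also lost with counts summed over the assembly component (0.44, FDR 0.0989). With shared-stem libraries summed the differences were 0.74 and 0.82. The authors' deposited table gives 0.549 (adjusted p of their test 0.011) in exponential and 0.249 (0.271) in stationary phase. Summed over the 5 members for these steps, the level was 106.5 ± 11.4 CPM (SD, n = 3) in freshwater and 235 ± 3.51 CPM in marine exponential libraries, 2.21 times as high. In stationary phase it was 75.0 ± 6.73 against 236 ± 60.6 CPM, 3.15 times as high, and 199.7 to 202.7 CPM in marine replicates 1 and 2 against 306 CPM in replicate 3.

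**Figure D3:**
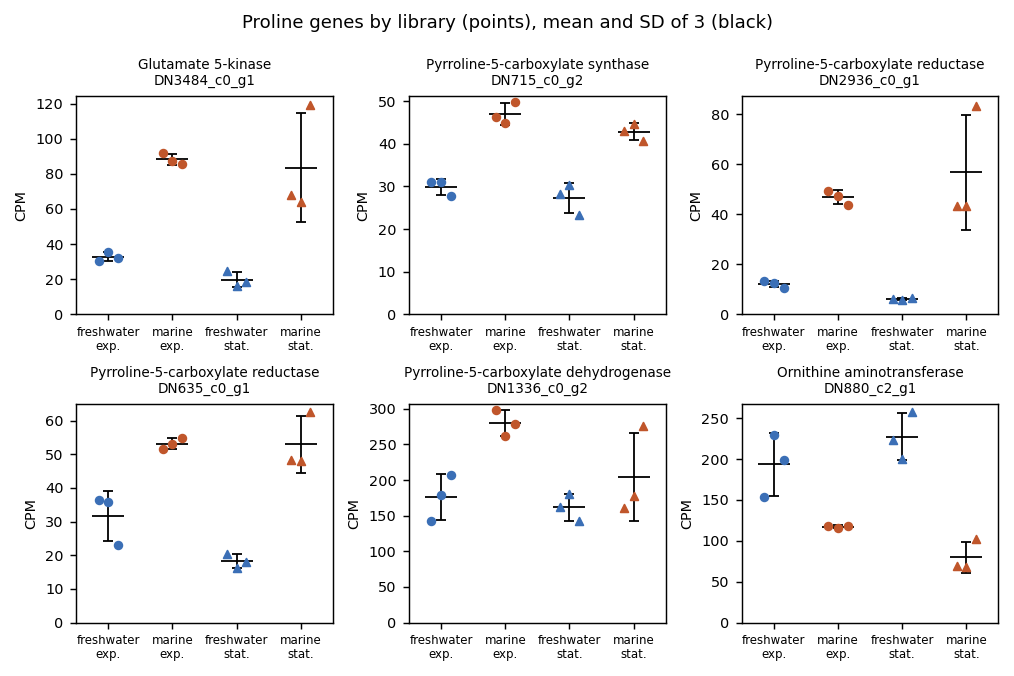
CPM of 6 genes of proline metabolism in each library (blue freshwater, orange marine, circles exponential, triangles stationary), with the mean and SD of 3 libraries in black. Glutamate 5-kinase, the P5C synthase and both P5C reductases are higher in all marine libraries than in the freshwater libraries of the same phase, and ornithine aminotransferase is lower.

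Ornithine aminotransferase offers another way to P5C, from ornithine. TRINITY_DN880_c2_g1 ran opposite to the genes above: it had 153, 229 and 198 CPM in freshwater and 118, 116 and 118 CPM in marine exponential libraries. In stationary phase it had 224, 200 and 257 CPM against 68.8, 68.4 and 102 CPM. The groups did not overlap, and the gene fell by 0.72 ± 0.19 on the log2 scale (FDR 0.0224) and by 1.51 ± 0.19 (FDR 0.000339). These values move with the scaling and the unit counted. The exponential difference was -0.08 with library totals as the only scaling, and with counts summed over the assembly component the differences were -0.01 and -0.35, without a call.

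Proline is broken down by proline dehydrogenase and then by P5C dehydrogenase. P5C dehydrogenase (TRINITY_DN1336_c0_g2) had 143, 179 and 207 CPM in freshwater and 299, 262 and 279 CPM in marine exponential libraries, a rise of 0.67 ± 0.21 (FDR 0.0463) that was lost without any 1 library but marine stationary replicate 3 (FDR up to 0.397). In stationary phase the groups overlapped, at 162, 180 and 143 CPM against 161, 177 and 276 CPM. The only proline dehydrogenase member (TRINITY_DN44473_c0_g1) was too low to test, at 2.48 and 4.37 CPM in 1 library of each freshwater group and 0 in the other 10 libraries. An acetylornithine aminotransferase (TRINITY_DN3983_c1_g2), an enzyme of arginine synthesis, had 308, 326 and 272 CPM against 423, 393 and 408 CPM in exponential phase. Its stationary values were 149, 184 and 152 CPM against 414, 405 and 178 CPM. It was called higher in stationary phase (1.04 ± 0.26, FDR 0.0177), although marine stationary replicate 3 lay within the freshwater range. That call was lost without freshwater stationary replicate 1 or 3 or marine stationary replicate 1 or 2 (FDR up to 0.0914).

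Glycerol-3-phosphate dehydrogenase reduces dihydroxyacetone phosphate to glycerol 3-phosphate, the precursor of glycerol and of glycerolipids. Of this type 2 members were found in both media, 1 of them higher with salt in exponential phase and the other in both phases. Both had a bacterial protein as best hit, and whether they come from the alga was not tested. TRINITY_DN3114_c0_g1 was at 4.84, 10.5 and 9.65 CPM in freshwater exponential libraries and at 55.7, 53.6 and 59.1 CPM in marine ones. The stationary values were 20.6, 45.7 and 35.2 CPM in freshwater and 59.6, 58.6 and 53.7 CPM in marine medium. Marine values were thus alike in both phases, while freshwater values were low in exponential phase and between the others in stationary phase. The exponential rise was 2.75 ± 0.33 (FDR 0.000203), kept without any 1 library but not with shared-stem libraries summed (2.84, FDR 0.06). The stationary difference of 0.76 ± 0.31 had an FDR of 0.094.

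TRINITY_DN3869_c0_g1 had 43.1, 46.8 and 47.5 CPM in freshwater and 106, 111 and 98.7 CPM in marine exponential libraries. Stationary libraries gave 27.0, 36.0 and 32.7 CPM against 89.7, 88.1 and 115 CPM. It rose in both phases without overlap, by 1.2 ± 0.14 (FDR 0.000193) and 1.62 ± 0.14 (FDR 3.63e-05), and both calls were kept without any 1 library. With shared-stem libraries summed the exponential call was lost (1.29, FDR 0.0668) and the stationary one stayed (1.84, FDR 0.00577). The mitochondrial enzyme that oxidises glycerol 3-phosphate, named SDP6 in Arabidopsis (TRINITY_DN190_c0_g1), had 187, 172 and 197 CPM against 300, 293 and 284 CPM in exponential phase. In stationary phase it had 166, 186 and 159 CPM against 263, 259 and 237 CPM. All marine values lay above all freshwater values, with log2 fold changes of 0.66 ± 0.10 (FDR 0.00076) and 0.57 ± 0.10 (FDR 0.00205). The exponential call was lost without freshwater exponential replicate 1 or 2 or any 1 marine exponential library (FDR up to 0.119).

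Glycerol kinase (TRINITY_DN4542_c0_g5), which returns glycerol to glycerol 3-phosphate, passed no test. It had 35.2, 46.1 and 33.0 CPM in freshwater and 26.0, 28.0 and 26.3 CPM in marine exponential libraries, a difference of -0.51 ± 0.19 (FDR 0.0851). In stationary phase 32.6, 32.9 and 29.7 CPM stood against 28.0, 25.7 and 18.4 CPM (-0.40 ± 0.19, FDR 0.134). The media did not overlap in either phase. The authors' deposited table gives -0.616 (adjusted p of their test 0.0477) in exponential and -0.802 (0.00552) in stationary phase. Diacylglycerol kinase 4 (TRINITY_DN1050_c0_g1), a lipid kinase, had 9.54, 13.6 and 12.5 CPM against 36.1, 34.6 and 31.3 CPM in exponential phase (1.51 ± 0.22, FDR 0.000712), but 0.11 without a call when counts were summed over its component. In stationary phase 16.5, 17.9 and 22.1 CPM overlapped with 29.0, 21.2 and 19.5 CPM. The pair of diacylglycerol kinase 2 genes (TRINITY_DN1609_c2_g1 and TRINITY_DN1609_c2_g3) carry the same hit and length, and several libraries listed 1 of them at 0 and the other at up to 23.5 CPM, so that counts of the pair could be split between copies. Neither was called.

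Sucrose is made by sucrose-phosphate synthase and is used or made by sucrose synthase, and galactinol-sucrose galactosyltransferases extend it to raffinose. All these named genes were higher with salt in at least 1 phase. The annotation names the sucrose-phosphate synthase and the galactosyltransferases as probable only, and their activity was not tested. Sucrose-phosphate synthase (TRINITY_DN1119_c0_g1) had 144, 110 and 238 CPM in freshwater and 248, 264 and 263 CPM in marine exponential libraries (0.66 ± 0.22, FDR 0.0672). Its stationary values were 135, 144 and 134 CPM against 231, 231 and 199 CPM. The groups did not overlap in either phase, and the stationary rise of 0.68 ± 0.22 passed narrowly (FDR 0.0478). It was lost without any 1 library but freshwater exponential replicate 2 or 3 (FDR up to 0.143).

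Sucrose synthase 3 (TRINITY_DN1500_c0_g1) had 172, 177 and 160 CPM in freshwater and 261, 260 and 254 CPM in marine exponential libraries. In stationary phase 57.4, 64.6 and 61.7 CPM stood against 228, 216 and 254 CPM. Freshwater stationary libraries were the low ones, and the media did not overlap. The rise was 0.61 ± 0.09 (FDR 0.0011) in exponential and 1.92 ± 0.10 (FDR 1.54e-06) in stationary phase. The exponential call was lost without any 1 of the 6 exponential libraries (FDR up to 0.156) and, at 0.22, with component sums; the stationary call was kept in all of these and with shared-stem libraries summed (2.12, FDR 0.00136).

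Galactosyltransferase 6 (TRINITY_DN610_c0_g1) was even within groups: 47.3, 47.3 and 47.2 CPM in freshwater and 141, 148 and 138 CPM in marine exponential libraries. Stationary values were 73.8, 85.4 and 72.8 CPM against 133, 135 and 120 CPM. It rose in both phases, by 1.59 ± 0.10 (FDR 2.39e-06) and 0.74 ± 0.10 (FDR 0.00039), kept without any 1 library. With shared-stem libraries summed the exponential call stayed (1.68, FDR 0.0153) and the stationary one was lost (0.9, FDR 0.0526). Galactosyltransferase 2 was found as 3 genes, of which 2 passed the test for salt in exponential phase and none in stationary phase. TRINITY_DN3186_c0_g2 had 47.6, 43.9 and 36.6 CPM against 96.7, 102 and 92.6 CPM there (1.19 ± 0.17, FDR 0.000624), and overlapping stationary values of 69.8, 75.9 and 61.2 CPM against 51.5, 52.5 and 75.0 CPM. TRINITY_DN2917_c1_g1 had 8.50, 8.19 and 8.50 CPM against 24.2, 24.5 and 22.4 CPM (1.49 ± 0.20, FDR 0.00044). Its stationary values were 11.2, 16.1 and 12.2 CPM against 18.5, 18.6 and 19.6 CPM, without overlap and without a call (0.52 ± 0.20, FDR 0.0762). With counts summed over its component, the exponential difference was -0.0018. Over the 4 galactosyltransferase members the summed level was 99.4 ± 6.04 and 265 ± 11.0 CPM in freshwater and marine exponential libraries, and 160 ± 16.8 and 209 ± 5.83 CPM in stationary ones (SD, n = 3). The third galactosyltransferase 2 gene, TRINITY_DN11806_c0_g1, had group means of 0.98 to 1.83 CPM and no call.

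Trehalose is a disaccharide made by trehalose-phosphate synthase and trehalose-phosphate phosphatase, and in plants most of the synthase family is held to be regulatory. No trehalose member of both media rose with salt. Trehalose-phosphate synthase 6 (TRINITY_DN353_c0_g1) had 518, 540 and 394 CPM in freshwater and 257, 248 and 251 CPM in marine exponential libraries. It had 288, 251 and 238 CPM against 151, 144 and 219 CPM in stationary phase. The media did not overlap, and it fell by 0.94 ± 0.18 (FDR 0.00347) and 0.60 ± 0.17 (FDR 0.0335). With library totals as the only scaling these differences were -0.30 (FDR 0.117) and -0.04 (FDR 0.847). That scaling moved the log2 fold changes of 31491 genes upwards by a median of 0.601 and 0.535. The stationary call was also lost without freshwater exponential replicate 2 or any 1 library of the marine exponential and freshwater stationary groups or marine stationary replicate 1 or 2 (FDR up to 0.137).

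Trehalose-phosphate synthase 1 (TRINITY_DN1924_c0_g1) did not pass the test for salt. It had 139, 135 and 112 CPM against 126, 130 and 125 CPM in exponential and 86.6, 78.5 and 71.3 CPM against 82.0, 82.8 and 73.3 CPM in stationary phase, with differences of -0.02 ± 0.11 and 0.01 ± 0.11. The phases, not the media, were apart. Trehalose-phosphate phosphatase 1 (TRINITY_DN737_c0_g1) overlapped in exponential phase, at 54.4, 86.8 and 80.2 CPM against 68.9, 69.8 and 64.5 CPM. In stationary phase it fell from 87.7, 106 and 97.1 CPM to 42.0, 42.9 and 65.6 CPM, by 0.95 ± 0.21 (FDR 0.00943). That call was lost without marine stationary replicate 1 or 2 (FDR up to 0.0682), and with library totals the difference was -0.40 (FDR 0.0934).

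**Figure D4:**
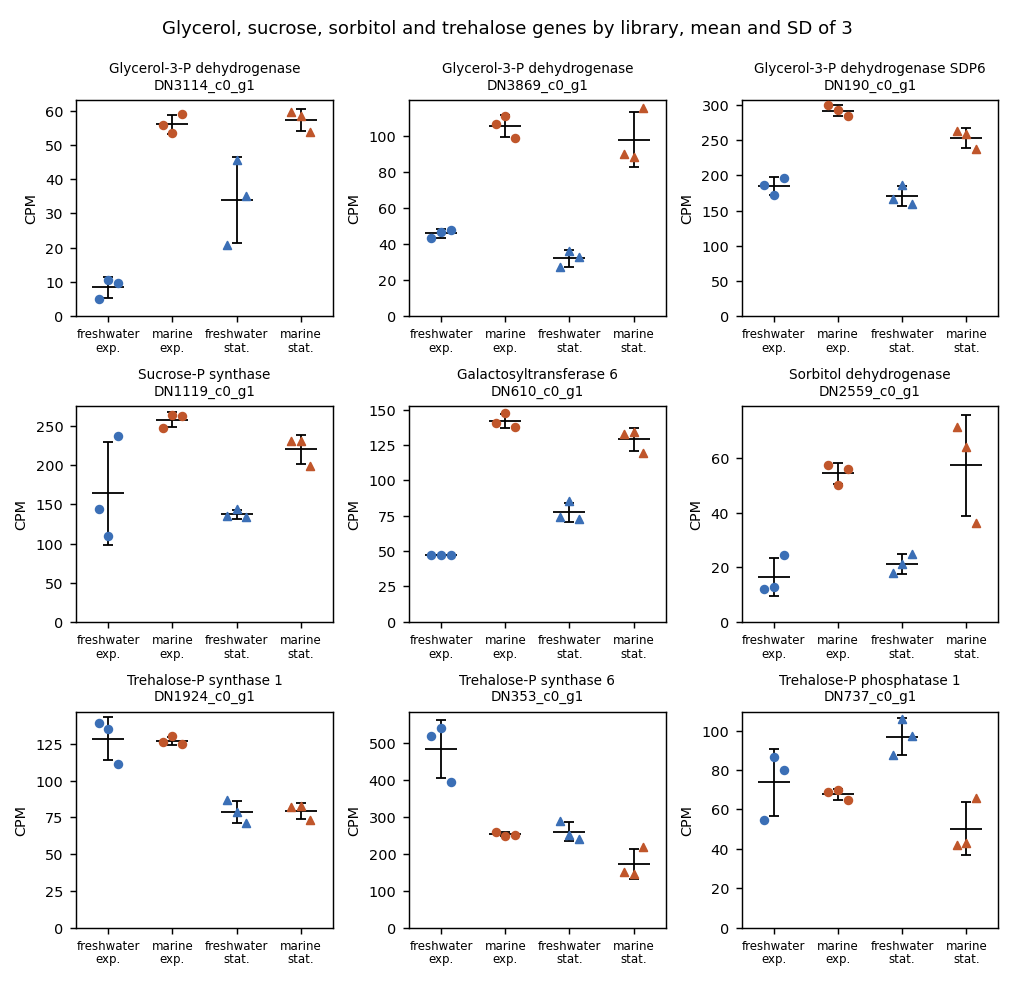
CPM of 9 genes of glycerol, sucrose, sorbitol and trehalose metabolism in each library (blue freshwater, orange marine, circles exponential, triangles stationary), with the mean and SD of 3 libraries in black. Marine libraries are higher for both glycerol-3-phosphate dehydrogenases and galactosyltransferase 6 and lower for trehalose-phosphate synthase 6, while trehalose-phosphate synthase 1 differs by phase.

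Inositol is made by inositol-3-phosphate synthase and freed from its phosphate by inositol monophosphatase. The synthase (TRINITY_DN883_c2_g1) had 156, 273 and 158 CPM in freshwater and 463, 464 and 368 CPM in marine exponential libraries (1.14 ± 0.26, FDR 0.0101). In stationary phase the values overlapped, at 300, 250 and 374 CPM against 224, 213 and 319 CPM. The exponential call was lost without freshwater exponential replicate 1 or 3 or any 1 marine exponential library (FDR up to 0.153). Inositol monophosphatase 2 (TRINITY_DN1777_c0_g1) showed the other order. It had 28.4, 28.2 and 27.6 CPM against 22.4, 22.0 and 22.5 CPM in exponential phase, without a call (-0.33 ± 0.28, FDR 0.397), and 5.70, 7.41 and 6.74 CPM against 28.9, 23.9 and 12.0 CPM in stationary phase, a rise of 1.70 ± 0.29 (FDR 0.0021) kept without any 1 library but not with shared-stem libraries summed (1.75, FDR 0.124).

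Sorbitol dehydrogenase (TRINITY_DN2559_c0_g1), which oxidises sorbitol to fructose, was higher with salt in both phases. It had 11.9, 12.8 and 24.6 CPM against 57.5, 50.1 and 55.9 CPM in exponential phase (1.73 ± 0.32, FDR 0.0034). In stationary phase it had 17.8, 21.0 and 25.0 CPM against 71.5, 64.2 and 36.4 CPM (1.43 ± 0.32, FDR 0.00978). The groups did not overlap. The first call was lost without freshwater exponential replicate 1 or 2 or marine exponential replicate 1 or 3 (FDR up to 0.0706), the second without freshwater stationary replicate 1 or marine stationary replicate 1 or 2 (FDR up to 0.0606).

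Spermidine synthase makes the polyamine spermidine from putrescine. TRINITY_DN4047_c0_g2 had 77.8, 69.7 and 41.8 CPM in freshwater and 127, 131 and 123 CPM in marine exponential libraries, a rise of 1.01 ± 0.22 (FDR 0.00976). It was lost without freshwater exponential or stationary replicates 2 or 3 or any 1 marine exponential library (FDR up to 0.138). Stationary values of 110, 71.5 and 78.6 CPM overlapped with 105, 102 and 114 CPM. Betaine aldehyde dehydrogenase makes glycine betaine, and no betaine member was detected in marine medium. The one with the highest level (TRINITY_DN26166_c0_g1) is 235 bases long and had 723, 0 and 729 counts in the freshwater exponential libraries and 0 in the other 9, so that 2 libraries of a group held it and the third did not.

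The 20 members of freshwater only had 0 counts in every marine library. Their summed level was 117.2, 5.32 and 127 CPM in freshwater exponential libraries, where the short betaine sequence makes up most of the higher 2, and 68.0, 39.1 and 37.2 CPM in freshwater stationary ones. The 10 that were tested passed the filter through freshwater libraries alone and could only be lower with salt. They hold 4 of the 6 lower calls in exponential and 6 of the 9 in stationary phase, from which nothing is read. An inositol-3-phosphate synthase with an amoeba hit (TRINITY_DN9733_c0_g1) had 6, 3 and 11 counts in freshwater exponential and 86, 75 and 51 counts in freshwater stationary libraries. Against 3 counts over the marine group it was at least 11.2-fold lower in exponential and at least 113-fold lower in stationary phase. The bounds in stationary phase were 75-fold for a spermidine synthase (TRINITY_DN5948_c0_g1) and 68.6-fold and 57.4-fold for trehalose-phosphate synthases (TRINITY_DN5911_c0_g1 and TRINITY_DN16042_c0_g1). These 3 have land plant hits, each beside a member of the same product in both media.

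The 5 members of marine medium only are glycerol kinases, glycerol-3-phosphate dehydrogenases and a maltose-binding protein, all with bacterial or archaeal hits. Together they reached 1.35, 1.86 and 1.01 CPM in marine exponential and 5.49, 2.55 and 13.2 CPM in marine stationary libraries. A glycerol kinase (TRINITY_DN43596_c0_g1) was called, at 26, 14 and 27 counts in marine stationary and 0 in all freshwater libraries, at least 14-fold higher. It passed the filter through marine libraries alone and could only be higher. The 12 assembled genes named as bacterial markers were likewise at higher summed levels in marine libraries. Their summed level was 0.39 to 1.36 CPM in freshwater exponential, 2.67 to 6.26 CPM in marine exponential, 0 to 1.82 CPM in freshwater stationary and 20.5 to 47.0 CPM in marine stationary libraries, and none was at 0 throughout. Their part in the result was not tested, and in such samples fewer cells of a kind and less RNA per cell cannot be told apart.

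Stationary phase was then set against exponential phase. In freshwater 3 of the 40 tested members were higher and 8 lower, where 6.46% and 4.42% of all tested genes were higher and lower. All of these 11 are among the 28 members of both media, and of the 4502 genes of both media with a hit 17.0% were higher and 16.6% lower. The lower ones include inositol monophosphatase 2, which fell by 2.08 ± 0.29 (FDR 0.00105), and sucrose synthase 3, which fell by 1.47 ± 0.10 (FDR 8.92e-06), and both calls were kept without any 1 library. With shared-stem libraries summed that of sucrose synthase 3 stayed (FDR 0.00265) and that of inositol monophosphatase 2 was lost (FDR 0.0639). Trehalose-phosphate synthase 6 fell by 0.90 ± 0.18 (FDR 0.00729), trehalose-phosphate synthase 1 by 0.71 ± 0.12 (FDR 0.00264) and the sucrose nonfermenting 4-like protein (TRINITY_DN1299_c1_g1), a subunit type of an energy-sensing kinase, by 1.03 ± 0.19 (FDR 0.00559), each also kept without any 1 library, and the last 2 lost with shared-stem libraries summed (FDR 0.0683 and 0.104). Both P5C reductases (FDR 0.0331 and 0.0225) and glycerol-3-phosphate dehydrogenase TRINITY_DN3869_c0_g1 (FDR 0.041) fell by 0.52 to 0.96, and lost the call without freshwater stationary replicate 1 or marine stationary replicate 2, for 2 of these 3 genes also without marine stationary replicate 1 (FDR up to 0.185).

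The 3 that rose on entry into stationary phase in freshwater were glycerol-3-phosphate dehydrogenase TRINITY_DN3114_c0_g1 (2.02 ± 0.32, FDR 0.00231), galactosyltransferase 6 (0.71 ± 0.10, FDR 0.000876) and galactosyltransferase 2 (TRINITY_DN3186_c0_g2, 0.69 ± 0.17, FDR 0.024). The first was kept without any 1 library but not with shared-stem libraries summed (1.81, FDR 0.124). The galactosyltransferases lost theirs without any 1 exponential library or freshwater stationary replicate 2 or 3, and TRINITY_DN3186_c0_g2 also without freshwater stationary replicate 1 (FDR up to 0.102 and 0.295). In marine medium 1 of 40 members changed between phases, where 0.311% of all tested genes were higher and 1.32% lower, and 0.822% and 4.53% of the 4502 genes of both media with a hit. It was trehalose-phosphate synthase 1, which fell by 0.68 ± 0.12 (FDR 0.0185), a call lost without any 1 of 9 libraries (FDR up to 0.325): freshwater exponential replicates 1 and 2, freshwater stationary replicates 2 and 3, the 3 marine exponential ones and marine stationary replicates 1 and 2.

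The salt effect itself was tested for a difference between phases. Of the 40 members, 3 had a larger and 5 a smaller log2 salt effect in stationary than in exponential phase, where 2.38% and 4.79% of all tested genes did. All 8 calls are among the 28 members of both media, of which 10.7% had a larger and 17.9% a smaller effect. Of the 4502 genes of both media with a hit 9.37% and 15.3% did, so the members lay near this background. Sucrose synthase 3 had the larger effect in stationary phase by 1.32 ± 0.13 (FDR 0.000277), kept without any 1 library but not with shared-stem libraries summed (1.43, FDR 0.132). Inositol monophosphatase 2 differed by 2.03 ± 0.40 (FDR 0.0119), lost without marine stationary replicate 1 or 2 (FDR up to 0.0606). The sucrose nonfermenting 4-like protein had 47.8, 31.4 and 36.7 CPM against 30.6, 28.5 and 24.4 CPM in exponential phase and 20.1, 18.8 and 18 CPM against 29.6, 27.7 and 36.6 CPM in stationary phase. It differed by 1.2 ± 0.27 (FDR 0.0223), lost without freshwater stationary replicate 1 or marine stationary replicate 1 or 2 (FDR up to 0.0731). In these 3 genes the freshwater level was low in stationary phase while the marine level had no call between phases.

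The 5 with a smaller effect in stationary phase were glycerol-3-phosphate dehydrogenase TRINITY_DN3114_c0_g1 (-1.99 ± 0.44, FDR 0.0213), galactosyltransferase 2 TRINITY_DN3186_c0_g2 (-1.40 ± 0.24, FDR 0.00527), galactosyltransferase 6 (-0.85 ± 0.14, FDR 0.00388), inositol-3-phosphate synthase TRINITY_DN883_c2_g1 (-1.43 ± 0.36, FDR 0.0381) and diacylglycerol kinase 4 (-1.21 ± 0.30, FDR 0.039). Over all genes 1507 of 31491 had a call of a smaller effect in stationary phase. Without any 1 marine exponential library 437 to 523 of 41039 to 41419 had one. None of these 5 members kept the call in every fit without 1 library. Their calls were lost in 11, 4, 8, 10 and 12 of the 12 fits without 1 library, in the same order, with any 1 marine exponential library among them each time (FDR up to 0.207, 0.1, 0.348, 0.323 and 0.461).

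**Figure D5:**
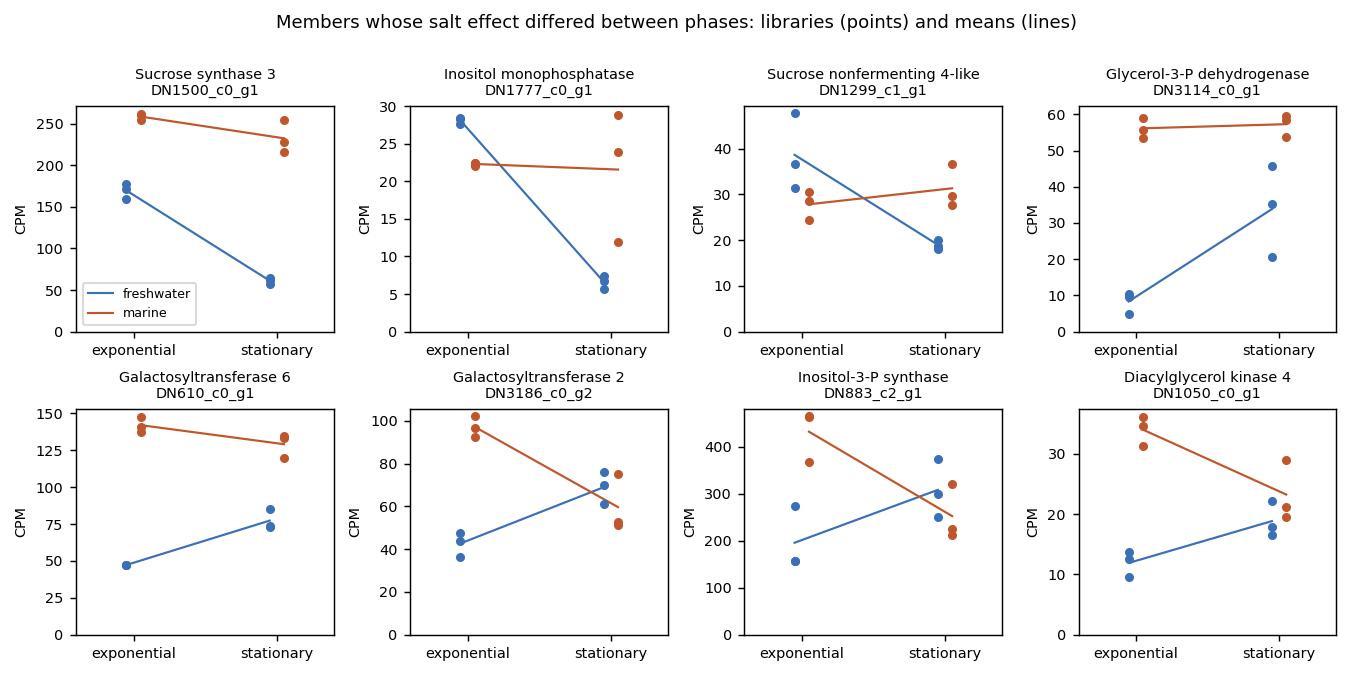
CPM of the 8 members whose salt effect differed between phases, with 3 libraries per group as points and lines joining the means of exponential and stationary phase (blue freshwater, orange marine). In the first 3 panels the freshwater line falls into stationary phase and in the other 5 it rises.

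Genes next to these pathways, taken by product name, were counted in the same fit. Of 20 tested genes around glutamate, ornithine and arginine, 4 were higher and 4 lower with salt in exponential phase and 8 higher and 5 lower in stationary phase, with median log2 fold changes of 0.08 and 0.5. Over all tested genes the medians were 0 and 0.23, with 9.30% higher and 10.8% lower, then 9.02% higher and 17.3% lower. At 0 in every freshwater library were 1 of the 4 and 3 of the 8 higher genes, all bacterial glutamine synthetases, and at 0 in every marine library 1 of the 4 and 2 of the 5 lower ones. A further 2 of the 20 are folylpolyglutamate synthases, taken in by letters and not called. For genes found in both media the nearer background is the 4502 with a hit. Of these 24.0% were higher and 21.6% lower in exponential phase, and 19.4% and 25.1% in stationary phase. Cytosolic glutamine synthetase (TRINITY_DN1744_c0_g1), which assimilates ammonium, rose from 364 ± 11.2 to 1386 ± 38.9 CPM in exponential phase (1.93, FDR 1.1e-05) and from 310.5 ± 36.6 to 1289 ± 247 CPM in stationary phase (2.05, FDR 1.03e-05). An NADP-specific glutamate dehydrogenase (TRINITY_DN2745_c0_g4) fell by 5.82 in exponential phase (235 ± 69.3 to 4.14 ± 0.31 CPM, FDR 0.000191) and by 2.37 in stationary phase (26.9 ± 8.45 to 5.16 ± 3.80 CPM, FDR 0.0173). Another of that name (TRINITY_DN1785_c0_g1) rose by 1.44 (38.0 ± 6.51 to 103 ± 4.00 CPM, FDR 0.000351) and 0.86 (36.0 ± 5.95 to 65.2 ± 13.8 CPM, FDR 0.0086). Glutamate dehydrogenase A (TRINITY_DN224_c1_g1) was not called in exponential phase (223 ± 67.1 against 249 ± 9.09 CPM, FDR 0.828) and fell by 2.65 in stationary phase (784 ± 230 to 125 ± 64.4 CPM, FDR 0.0006). Ornithine carbamoyltransferase (TRINITY_DN3295_c0_g2), which takes ornithine to citrulline, fell by 0.73 in exponential phase (113 ± 3.80 to 67.9 ± 2.51 CPM, FDR 0.043) and rose by 1.25 in stationary phase (22.6 ± 6.07 to 53.9 ± 14.0 CPM, FDR 0.00318).

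Of 12 tested polyamine genes, 6 were higher and 2 lower in exponential and 4 higher and 6 lower in stationary phase, with medians of 0.94 and -1.01, beside the same shares over all tested genes. Both lower genes in exponential phase and 3 of the 6 in stationary phase were at 0 in every marine library and could only be lower. All higher genes had counts in both media. Of the 4502 tested genes of both media with a hit 24.0% were higher and 21.6% lower in exponential phase, and 19.4% and 25.1% in stationary phase. A wide gap was that of agmatine deiminase, which turns agmatine into the precursor of putrescine. Its first gene (TRINITY_DN412_c0_g1) rose from 15.1 ± 1.91 to 445 ± 9.65 CPM in exponential phase (4.88, FDR 2.51e-07) and from 53.4 ± 12.7 to 513.5 ± 33.4 CPM in stationary phase (3.26, FDR 1.81e-06). The second (TRINITY_DN412_c0_g2) rose from 9.4 ± 2.13 to 111 ± 11.7 CPM and from 18.9 ± 5.27 to 133 ± 4.97 CPM (3.56 and 2.82, FDR 3.78e-06 and 1.75e-05). N-carbamoylputrescine amidase (TRINITY_DN1720_c0_g1), the next enzyme, was not called in exponential phase (47.1 ± 15.7 against 89.9 ± 0.69 CPM, FDR 0.0652) and fell by 1.13 in stationary phase (155 ± 34.1 to 70.6 ± 31.7 CPM, FDR 0.0282). These neighbours were singled out after their values were seen.

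The remaining lists were short. Choline monooxygenase (TRINITY_DN1660_c0_g2), which makes betaine aldehyde, was called higher in exponential phase (7.73 ± 2.19 to 20.1 ± 3.06 CPM, 1.38, FDR 0.03). Of 9 tested genes next to glycerol 1 was higher and 1 lower in exponential and 1 higher and 5 lower in stationary phase. Of 7 next to sucrose and trehalose 1 was higher and 3 lower, then 1 higher and 2 lower. Of 3 next to inositol 1 was lower in exponential phase, and 2 were higher and 1 lower in stationary phase. In each phase 1 lower gene next to glycerol and the 1 next to inositol were at 0 in every marine library. These genes could only be lower. Over all tested genes 9.30% were higher and 10.8% lower in exponential phase, and 9.02% and 17.3% in stationary phase. For the 4502 genes of both media with a hit these shares were 24.0% and 21.6%, then 19.4% and 25.1%.

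The authors' deposited table of comparisons, which rests on their own normalisation, holds values for the same libraries and so is no separate evidence. Of the 28 members of both media, 15 in the authors' deposited table were higher and 3 lower with salt in exponential phase at an adjusted p under 0.05, and 17 of these calls were shared in direction with the calls above. In stationary phase the authors' deposited table has 8 higher and 7 lower, with 11 shared. For the difference between salt effects the authors' deposited table has 2 higher and 9 lower, against 3 and 5 above, with 7 shared. No call was opposite. The log2 fold changes of the authors' deposited table differ from those above by a median of -0.107 in exponential and -0.403 in stationary phase over 14521 genes.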

How the data were processed

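The deposited count matrix holds expected counts per assembled gene, not normalised, made per the series text with Trinity assembly and RSEM; the submitters' processing notes list RSEM 1.3.2, Bowtie and DESeq2 1.20.0. In their deposited table of comparisons, signal is a group mean after SVCD normalisation, beside log2 fold changes and adjusted p-values of the authors' test. Per the file headers, the annotation table gives sequence length, E-value and mean similarity in percent of the Swiss-Prot hits; no reference genome was used here.

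Expected counts were rounded to whole numbers, filtered with filterByExpr and scaled by TMM (factors 0.7381 to 1.395). All 12 libraries entered the same edgeR 4.0.16 model (R 4.3.3), which had a coefficient for each group, with quasi-likelihood F-tests, Benjamini-Hochberg adjustment over 31491 genes and calls at FDR under 0.05. The procedure was tested on simulated counts. Exact permutation of 3 against 3 libraries cannot go below p = 0.1. Standard errors were taken from the F statistic. Alternatives used DESeq2 1.42.0, other scalings, filters and units, a replicate block and fits without 1 library. A member is named when called in at least 1 of 5 contrasts with a mean of at least 10 CPM, or when it has the highest mean of its product name. Some marine libraries share a library code stem, and no pair of replicates agreed within counting noise (chi-square over degrees of freedom 36.41 to 94.01). Bounds against 3 counts cover counting error only. Members and lists were chosen with earlier results of these data known. Tables were read and figures drawn with Python 3.11.15 and matplotlib 3.10.9.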

Additional observations from a re-analysis of the deposited data

Results flagged for a closer look

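For 8 members the salt effect differed between exponential and stationary phase by a test of the difference itself (log2, stationary minus exponential, FDR under 0.05 over all tested genes). All 8 are among the 28 members of both media, of which 10.7% had a larger and 17.9% a smaller effect in stationary phase. Of the 4502 tested genes of both media with a hit 9.37% and 15.3% did, so the members lay near this background. The differences were 1.32 for sucrose synthase 3 (TRINITY_DN1500_c0_g1), 2.03 for inositol monophosphatase 2 (TRINITY_DN1777_c0_g1) and 1.2 for the sucrose nonfermenting 4-like protein (TRINITY_DN1299_c1_g1). They were -1.99 for glycerol-3-phosphate dehydrogenase (TRINITY_DN3114_c0_g1), -1.40 for galactosyltransferase 2 (TRINITY_DN3186_c0_g2), -0.85 for galactosyltransferase 6 (TRINITY_DN610_c0_g1), -1.43 for inositol-3-phosphate synthase (TRINITY_DN883_c2_g1) and -1.21 for diacylglycerol kinase 4 (TRINITY_DN1050_c0_g1). Of these, sucrose synthase 3 was called in every fit without 1 library, but not with shared-stem libraries summed (1.43, FDR 0.132), a setting under which none of the 8 was called.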

How the results depend on the processing

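Depth limits the members of a single medium. The shared library codes limit every marine comparison and, through the estimate of spread that all groups share, those within freshwater. Counts of called members are given as higher and lower. With shared-stem libraries summed they were 1 and 0 for salt in exponential phase, 5 and 2 for salt in stationary phase, 0 and 2 for phase in freshwater, 0 lower for phase in marine medium, and 0 and 0 for the difference between salt effects; over all genes that fit called 401 and 485, 435 and 1293, 341 and 546, 0 and 0, and 34 and 21. The fit limited to genes of both media, and the members of both media alone (added after the data were seen), gave 2 and 3 lower for salt in the phases. Without the filter on low counts, 3 were lower for salt in exponential phase, 5 lower for phase in freshwater, 0 lower for phase in marine medium, and 1 and 2 for the difference. DESeq2 gave 5 higher for phase in freshwater, 2 lower for phase in marine medium and 5 higher for the difference, and its size factors in edgeR 3 lower for the difference. Library totals as the only scaling, added after the data were seen, gave 8 higher for phase in freshwater and 0 lower in marine medium. Component sums gave 0 lower for phase in marine medium and 6 and 0 for the difference, and reversed diacylglycerol kinase 4 (TRINITY_DN1050_c0_g1, difference 0.68) and galactosyltransferase 2 (TRINITY_DN2917_c1_g1, exponential salt effect -0.0018).

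Same-numbered samples did not deviate together (correlations -0.0387 to 0.0611), so the numbers were not taken as pairs. With the replicate block 2 members were lower for salt in exponential phase, 2 lower in stationary phase, 5 lower for phase in freshwater and 3 lower for the difference.

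Leaving out 1 library gave 8 to 17 higher and 2 to 6 lower for salt in exponential phase, 8 to 13 and 3 to 8 in stationary phase, 1 to 3 and 5 to 10 for phase in freshwater, 0 and 0 to 4 for phase in marine medium, and 1 to 6 and 0 to 5 for the difference. Of 54 calls of the 27 named genes, 26 were kept in all 12 such fits, and 9 with shared-stem libraries summed. The causes of these changes were not tested. Fits without 1 library had fewer samples but more tested genes, 37962 to 41585 against 31491 with all libraries. More were also tested with shared-stem libraries summed (51469) and without the filter on low counts (52773). Fewer were tested with component sums (27673) and with genes of both media only (21521).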
